A study of Mus musculus with 6 samples.

Results

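The cells described here are those of the fetal mouse intestine with the largest share of transcripts from 6 genes of the smooth muscle contractile apparatus. These genes are Acta2 (smooth muscle alpha-actin), Tagln (transgelin, an actin-binding protein), Myh11 (smooth muscle myosin heavy chain), Actg2 (gamma-actin of visceral muscle), Cnn1 (calponin) and Des (desmin, an intermediate filament protein). Of 13127 cells, 12688 had at least 1000 detected genes and at most 5% of unique molecular identifiers (UMIs, single counted transcripts) from mitochondrial genes. The top 5% by the share of UMIs in the 6 genes were taken separately among barcodes ending in 1 (ending A, 288 of 5742 cells) and in 2 (ending B, 348 of 6946 cells), which gave 636 high-share cells. They were compared with the remaining cells of the first and second barcode sets of the same ending, 4288 in A and 4417 in B. At the 5% limit the group did not stand apart as a cell type. Its cells formed the upper tail of a graded distribution, so they are called high-share cells and not smooth muscle. They occurred in most clusters, but in B a single cluster held 49.7% of them. Whether smaller or overlapping groups lie within this tail could not be told.

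Small intestine was taken from C57/BL6 mice carrying Pdgfra-H2BGFP, a nuclear green fluorescent protein reporter of the receptor gene Pdgfra that marks much of the gut mesenchyme, and replicates were pooled at E13.5 (4), E14.5 (3), E15.5 (2), E16.5 (2) and E18.5 (2). Pieces of 2.5 mm, from 3 per intestine at E13.5 to 20 at E18.5, were tagged with lipid-bound barcodes, pooled, and captured in 6 wells. Of these, 2 held all live cells (negative for the dye DAPI and the red cell marker Ter119) of E15.5 with E16.5 and 1 held cells of those ages sorted for CD31, CD45, Epcam or a high reporter signal, and the layout was repeated for E13.5 with E14.5 and E18.5. The deposited matrix has 6 barcode sets, 3 in each ending, that no label ties to a well, age or segment, so it was treated as 1 sample. Ratios therefore carry 95% intervals that cover counting error only, and nothing below measures variation between embryos.

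Smooth muscle contracts when myosin light chain kinase phosphorylates the myosin regulatory light chain, and actin, tropomyosin, calponin and caldesmon set how the filaments slide. In the developing gut, circular and longitudinal muscle layers form from mesenchyme around the epithelial tube, and single muscle fibres later enter the villi. Acta2 and Tagln are also made by fibroblasts and other mesenchymal cells, whereas Myh11, Actg2, Cnn1 and Des are usually read as signs of a more mature muscle cell.

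High-share cells made up 5.95% and 5.85% of cells in the first and second sets of ending A and 1.60% of the third. In ending B the shares were 7.55%, 6.31% and 0.954%. The third sets thus held few of them, 19 cells in A and 21 in B. Median depth was 11877 UMIs per high-share cell against 12914 in remaining cells of ending A, and 3928.5 against 4164 in ending B. Ending B was thus the shallower of the pair, and levels were compared within an ending. Of all barcodes, 22 occurred in more than 1 set, 4 of them among high-share cells, and only 1 and 2 were shared within endings A and B.

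The share of UMIs in the 6 genes declined across the threshold without a gap. In ending A the lowest member had 0.361043% and the highest cell outside had 0.360706%, and in ending B these values were 0.251256% and 0.250537%. The median was 0.440% in high-share cells against 0.123% in remaining cells of A, and 0.312% against 0.0856% in B. These medians stand for 53.5 against 15 UMIs per cell in A and 13 against 4 in B. The highest single cell reached 1.48% in A and 2.29% in B, and 3 and 2 cells were above 1%. Between the top 1% and the top 10% of cells, the widest gap between neighbours was 0.00746 percentage points in A and 0.00578 in B, and the widest gap of all lay between the highest cell and the next in both endings. Among this many cells neighbouring values lie close at almost any limit. The lack of a gap therefore cannot show whether overlapping groups are present.

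**Figure D1:**
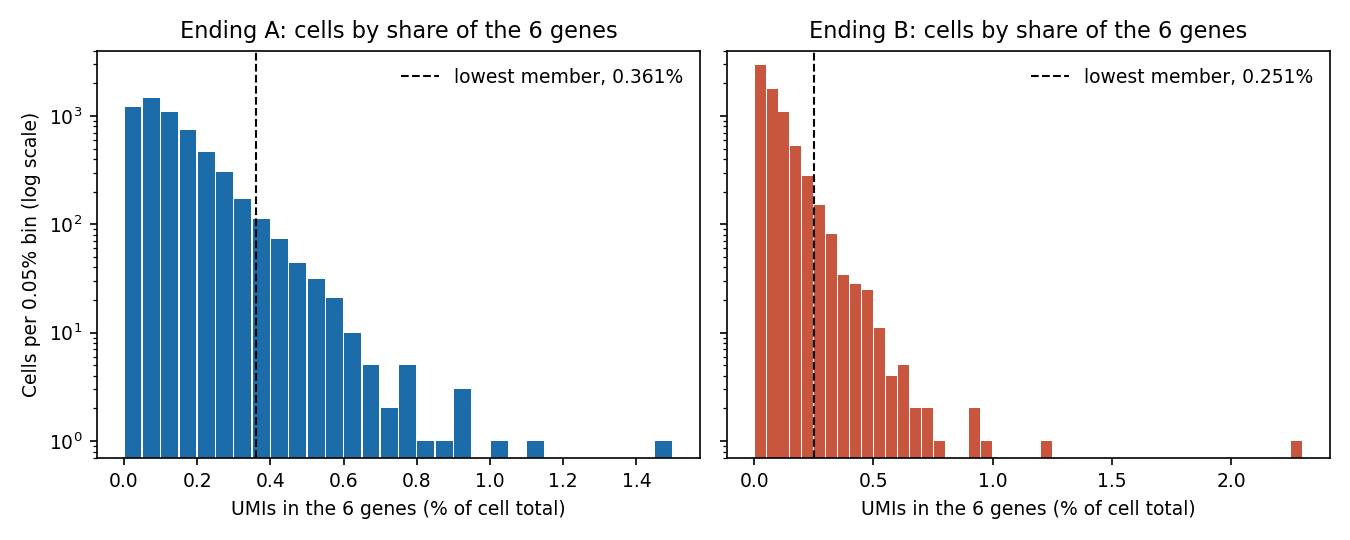
Number of cells (log scale) by the share of UMIs in the 6 genes, in bins of 0.05%, for cells that passed the filter in each ending. The dashed line marks the lowest high-share cell, at 0.361% in A and 0.251% in B, and the counts decline through it.

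Acta2 and Tagln carried most of the signal that chose the cells, and the values of the 6 genes are given as a description only. In counts per 1000000 UMIs (CPM), Acta2 stood at 2893 in high-share against 811 in remaining cells of A, and at 1657 against 397 in B. Tagln stood at 987 against 271 in A and at 1420 against 264 in B. These 2 genes gave 61.1% and 20.9% of the 6-gene UMIs of the high-share cells in A, and 43.2% and 37.0% in B. Myh11 was at 292 against 75.4 CPM in A and at 201 against 54.5 CPM in B. Actg2 was at 432 against 163 CPM in A and at 381 against 154 CPM in B, where 1 cell alone held 13.8% of the high-share UMIs. Cnn1 (65.9 against 27.5 CPM in A, 90.1 against 30.0 CPM in B) and Des (64.8 against 39.7 CPM, 87.5 against 33.8 CPM) were the lowest of the 6.

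All 6 genes were detected together in few high-share cells, but in a larger share of them than of remaining cells. Cnn1 and Des were scarce at these depths, so a missing UMI does not show that a cell lacked the transcript. The count of cells with all 6 therefore cannot tell how many cells expressed the whole set. All 6 were detected in 39 of 288 cells in A and in 15 of 348 (4.31%) in B, against 4.69% and 0.226% of remaining cells. Acta2 led in 254 cells of A and 173 of B, Tagln in 32 and 133, Actg2 in 0 and 8, and Myh11, Cnn1 and Des led in none, with ties in 2 and 34 cells. At an equal depth of 2000 UMIs per cell (1 high-share and 2 remaining cells of A and 5 and 18 of B were too shallow), Myh11 was detected in 39.7% (interval 34.0 to 45.6) of high-share against 14.7% of remaining cells in A. The same shares were 25.4% (20.8 to 30.3) against 10.6% in B. Without thinning they were 81.3% against 54.3% in A and 40.5% against 20.5% in B.

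Detection alone did not mark these transcripts as belonging to a few cells. Among 401 cells of ending A with at least 3 epithelial markers (median 7951 UMIs), 61.6% had an Acta2 UMI and 23.7% a Myh11 UMI, while Acta2 was detected in 100% of high-share and 97.5% of remaining cells. Those epithelial-marker cells also held 703 CPM of Col1a1, a collagen of mesenchyme, so they are no clean measure of free RNA. The part of free RNA in the shares was not tested.

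To ask whether the 6 genes were high in the same cells, each was left out of the choice in turn and read in the cells chosen on the other 5. In ending A the left-out gene was higher by a log2 ratio of 1.20 for Acta2, 1.20 for Tagln, 1.80 for Myh11, 1.22 for Actg2, 1.19 for Cnn1 and 0.31 (interval 0.08 to 0.53) for Des. In ending B the ratios were 1.37, 1.49, 1.56, 0.93, 1.30 and 1.13 in the same order. All 6 left-out genes were thus higher in the chosen cells of both endings, and Des in A had the smallest ratio. The chosen cells include the third set, which the remaining cells do not, and these ratios were not read set by set. Among the high-share cells of A, chosen on all 6 genes, the third set supplied 17.8% of the Des UMIs. Their Des ratio was 0.69 in the first set and 0.23 (-0.13 to 0.57) in the second, so Des in A is weakly supported. When the choice was made on one random portion of each cell's UMIs and read in the remaining portion, 186 of 288 cells (64.6%) of A and 134 of 348 (38.5%) of B were again in the top 5%. The 6 genes together were then higher by 1.62 in A and 1.64 in B, from UMIs that took no part in the choice.

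Ranking the cells of the first and second sets by Acta2, Tagln and Cnn1 and reading Myh11, Actg2 and Des gave a decline from bin to bin. Its widest step lay at 1% in both endings. In ending A their summed level was 1050 CPM in the top 1% of cells, 724 in the next 1%, 627 from 2 to 5%, 456 from 5 to 10%, 379 from 10 to 20%, 286 from 20 to 50% and 225 in the lower 50%. Ending B went from 1276 CPM (interval 1156 to 1406) in the top 1% to 457, 346, 338, 277, 249.6 and 227. The top 1% of B stood further from the next bin than in A, and of its 410 UMIs over 62 cells a single cell gave 81 of Actg2, 18 of Des and 5 of Myh11. Most of the 410 UMIs thus came from the other cells of the bin. On either side of the 5% limit the intervals overlapped in B (346 and 338 CPM) but not in A, where 627 CPM (594 to 662) was followed by 456 CPM (434 to 479). The widest step in A lay at 1%, from 1050 to 724 CPM. Des taken alone was nearly level from 2% down in A, between 34.0 and 41.6 CPM, and reached 199 CPM in the top 1% of B.

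Taken as a sum, the 24 other contractile genes followed the same gradient under the 6-gene ranking. Their summed level in ending A was 10776 CPM in the top 1%, then 8983, 7862, 7126, 6596, 5719 and 4914 CPM in the lower 50%. In ending B it was 12218, 8530, 7786, 6805, 6268, 5749 and 5406 CPM. Every bin was below the one above it in both endings, on each side of the limit that defines the group. Myl9, the myosin regulatory light chain, went from 1104 to 175 CPM in A and from 1015 to 179 CPM in B over the same bins. Caldesmon (Cald1) was nearly level in A, from 1181 to 1037 CPM, and in B stood at 1756 CPM in the top 1% and between 1183 and 1441 CPM below it.

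**Figure D2:**
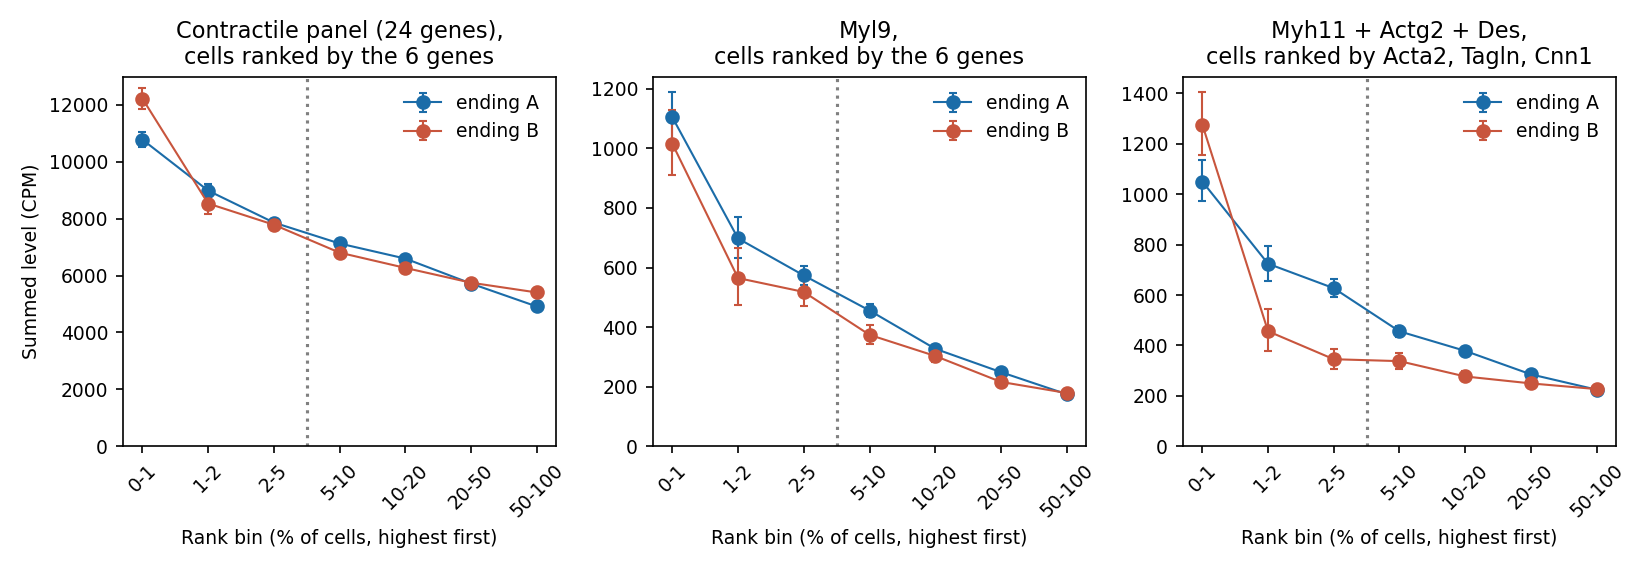
Summed levels (CPM, with 95% counting intervals) of the 24-gene contractile panel and of Myl9 in cells ranked by the 6 genes, and of Myh11, Actg2 and Des in cells ranked by the other 3 genes, for endings A and B; the dotted line marks the top 5%. The panel is lower in each bin than in the one before, from 10776 to 4914 CPM in A and from 12218 to 5406 CPM in B, and the line lies inside the slope.

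No cluster examined was made mainly of high-share cells. Clustering each ending without the 6 genes gave 17 clusters in A, all holding high-share cells, and 13 in B, of which 12 held them. Among clusters of at least 50 cells their share ran from 0.304% to 12.3% in A and from 0 to 13.7% in B. The cluster of A with the most of them was led by Ogn, Sptssb and Maf and held 56 of 288 (19.4%). In B a cluster led by Ogn, Cxcl13 and Aspn held 173 of 348 (49.7%), yet these were 13.7% (interval 11.8 to 15.7) of its 1265 cells. With finer clusters or without the contractile panel, the highest share in any such cluster was 20.3%. In the first clustering, the highest share among smaller clusters was 20% (4 of 20 cells, led by Cdo1 and Chodl in A). In the finer clusterings and those without the panel, the shares in clusters under 50 cells were not examined.

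Within clusters, the high-share cells still had more of the contractile panel. In the 12 clusters of A and 11 of B with at least 5 high-share cells, the log2 ratio of the panel inside the cluster ran from 0.35 to 1.16 in A and from 0.43 to 1.49 in B. All were above 0. Reweighting the remaining cells to the clusters of the high-share cells, a calculation added after the data were seen, gave 0.60 in A and 0.63 in B.

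**Figure D3:**
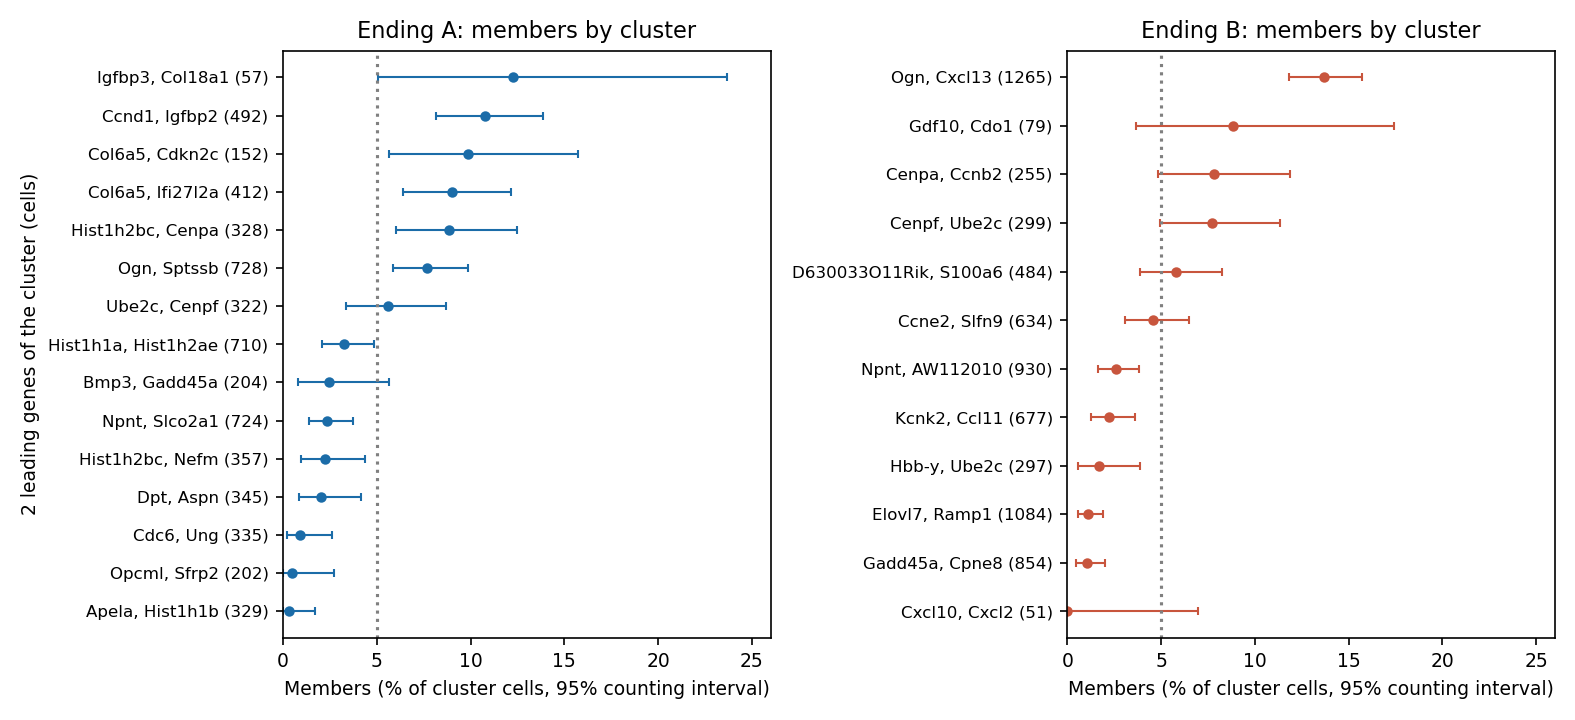
Percent of cells in each cluster of at least 50 cells that were high-share cells (points, with 95% counting intervals), for clusters made without the 6 genes; labels give the cluster's 2 leading genes and its number of cells, and the dotted line marks 5%. Shares spread from 0.304% to 12.3% in A and from 0 to 13.7% in B, and no cluster came near to being made of high-share cells.

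The contractile panel outside the rule was higher in high-share cells by nearly the same amount in both endings. Its summed level was 8769 against 5572 CPM in ending A, a log2 ratio of 0.65 (interval 0.64 to 0.67), and 9078 against 5780 CPM in ending B, a ratio of 0.65 (0.63 to 0.68). The first and second sets taken alone gave 0.57 and 0.69 in A and 0.63 and 0.64 in B. At least 1.5-fold higher were 13 of the 20 panel genes with 20 CPM or more in A and 13 of 19 in B, and none was 1.5-fold lower. Over all genes at that level, 1.66% in A and 2.67% in B were 1.5-fold higher and 1.02% and 2.44% were 1.5-fold lower, and the median log2 ratio was -0.03 in A and 0.01 in B, against panel medians of 0.67 and 0.70. In all 4 of the first and second sets, 13 of 18 panel genes were higher, against 10.3% of all genes. Cell by cell the groups overlapped: the panel took a median of 0.842% of UMIs in high-share against 0.544% in remaining cells of A, and 4.38% of remaining cells were at or above the high-share median. In B the medians were 0.817% and 0.565%, and 10.3% of remaining cells reached the high-share median.

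Most genes described from the myosin light chain switch were higher in high-share cells. Myl9 stood at 708 against 240 CPM in A (log2 ratio 1.56) and at 651 against 227 CPM in B (1.52, interval 1.42 to 1.62). It was detected in 98.6% of high-share cells in A and 84.8% in B. Mylk, the kinase that phosphorylates this light chain, stood at 631 against 292 CPM in A and at 593 against 318 CPM in B (ratios 1.11 and 0.90). Over the 4 first and second sets the Mylk ratio was 1.02 and 1.22 in A and 0.75 and 1.06 in B. Myl6, the essential light chain of smooth muscle and non-muscle myosin, stood at 1424 against 837 CPM in A and at 1375 against 888 CPM in B. The phosphatase that reverses the switch was uneven: its subunit Ppp1r12b was at 79.2 against 45.2 CPM in A and at 44.1 against 21.5 CPM in B. Its inhibitor Ppp1r14a had intervals across 0 in both endings, with ratios of -0.04 (-0.15 to 0.07) and 0.06 (-0.07 to 0.19).

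Genes of the thin filament were higher as well. Tpm1 and Tpm2 encode tropomyosins, and Tpm1 stood at 1873 against 1172 CPM in A and at 2338 against 1170 CPM in B. Tpm2 was at 564 against 329 CPM in A and at 558 against 303 CPM in B. Nexn encodes nexilin, which binds actin filaments, and was at 121 against 55.4 CPM in A (ratio 1.13) and at 174 against 62.8 CPM in B (1.47). Lmod1, encoding leiomodin, a nucleator of actin filaments in smooth muscle, had the largest ratio among panel genes with 20 CPM or more in at least 1 ending, at a low level, 28.2 against 5.20 CPM in A (2.44) and 16.9 against 5.17 CPM in B (1.71, interval 1.03 to 2.34). Only 57 of 288 high-share cells in A and 18 of 348 in B had a Lmod1 UMI. Cnn2, a calponin of many cell types, was at 373 against 235 CPM in A and at 290 against 149 CPM in B.

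Several genes of mature muscle had small or uneven ratios. Cald1 had a ratio of 0.16 in A and -0.04 (interval -0.10 to 0.03) in B. Synpo2, encoding a protein of actin bundles, had 0.38 in A and -0.10 (-0.39 to 0.18) in B, and Pdlim3 0.96 in A and 0.16 (-0.29 to 0.59) in B. Smtn (smoothelin) was at 41.8 against 32.7 CPM in A and at 36.3 against 35.6 CPM in B. Synm, Kcnmb1 and Ldb3 stayed below 20 CPM in both groups and endings, with a UMI in 11, 10 and 3 high-share cells of A and in 7, 5 and 2 of B. The members of the list thus differed among themselves, from light chain and tropomyosin genes that were higher in both endings to caldesmon and the phosphatase inhibitor, whose levels were close in both groups.

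**Figure D4:**
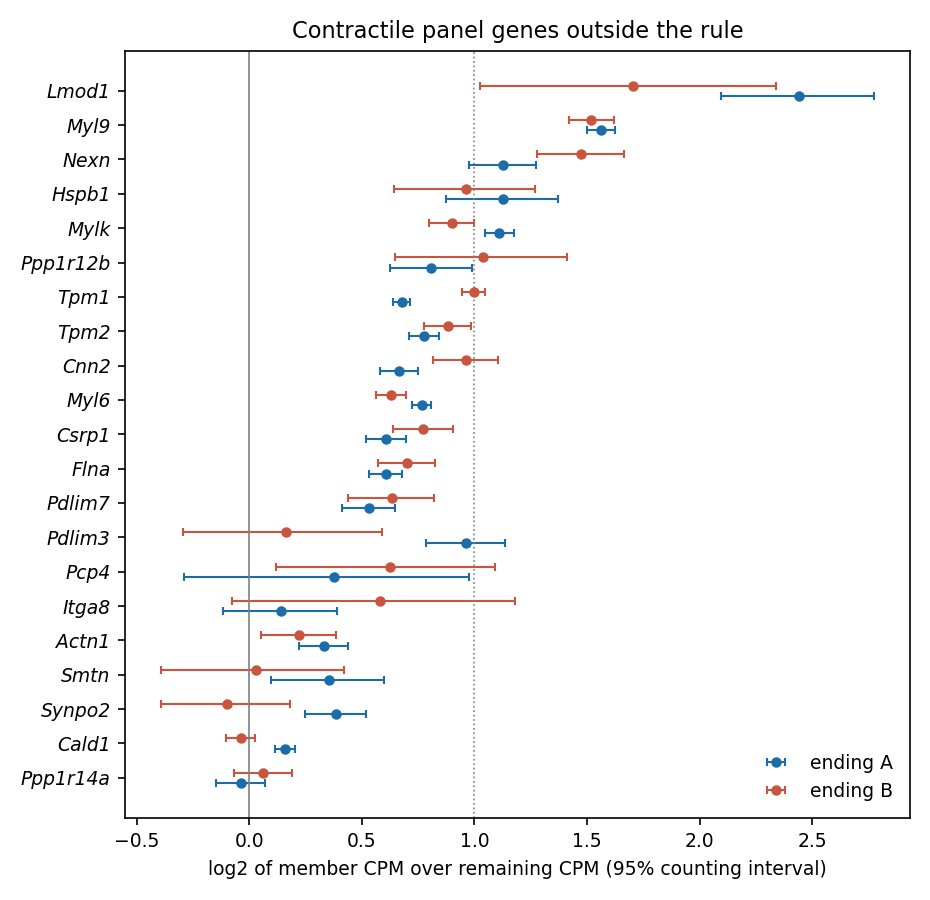
Log2 ratio of the level in high-share over remaining cells, with 95% counting intervals, for the contractile panel genes with at least 20 CPM in 1 ending (solid line, no difference; dotted line, 2-fold). Lmod1, Myl9 and Nexn lie beyond 2-fold in both endings, at 2.44 and 1.71, 1.56 and 1.52, and 1.13 and 1.47, whereas Cald1 and Ppp1r14a lie near 0.

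Serum response factor activates many contractile genes through a motif called the CArG box, so the promoters of the whole contractile panel, including genes that were not higher, were searched for it. RefSeq windows on GRCm38.p6 were found for 23 of the 24 panel genes (all but Nexn), and 4 of them (17.4%) held a CArG box in the 250 bases before a start site, on either strand, against 439 of 27025 genes (1.62%) in all. The 4 are Myl9, Cnn2 and Myl6, which were higher in both endings, and Ldb3, which had 3 and 2 UMIs in the high-share cells. Windows were found for 3 of the 6 genes of the rule (Acta2, Cnn1 and Des), and none held a full box. The stretches around the box are shown for the 3 panel genes above 20 CPM, 5′ to 3′ on the gene's strand, with the box in capitals. That of Myl9 (chr2:156775253-156775362, plus strand) lies 161 bases before the start, that of Cnn2 (chr10:79988494-79988599, plus strand) 56 bases before, and that of Myl6 (chr10:128493010-128493109, minus strand) 50 bases before.
Myl9: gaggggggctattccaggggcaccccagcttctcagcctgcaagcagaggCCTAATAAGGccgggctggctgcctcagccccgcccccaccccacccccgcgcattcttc
Cnn2: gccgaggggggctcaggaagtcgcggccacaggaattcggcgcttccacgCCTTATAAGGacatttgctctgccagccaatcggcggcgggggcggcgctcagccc
Myl6: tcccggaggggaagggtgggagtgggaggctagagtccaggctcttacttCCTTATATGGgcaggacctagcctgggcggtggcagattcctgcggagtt
These matches describe letters in the windows and say nothing of binding in these cells.

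Across all genes the differences were small in number. With at least 50 CPM in the higher group, 10 of 3635 genes outside the rule were 2-fold higher in ending A (0.275%) and 9 of 2957 in ending B (0.304%). No gene was 2-fold lower in A (0%) and 11 were in B (0.372%). Without the cells of the third set those lower counts were 2 and 20. Only Myl9 and Nexn were 2-fold higher in both endings and higher in each of the 4 first and second sets (0.0729% of 2742 genes), and no gene was 2-fold lower in that way.

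A looser limit of 1.5-fold in both endings, set after the values were seen, gave 19 higher genes (0.693%) and 4 lower ones (0.146%). Besides Myl9, Nexn, Mylk, Myl6, Tpm1, Tpm2, Cnn2, Csrp1 and Flna of the panel and Vcl of the adhesion list, these were Cavin3, Ckb, Il33, Nrp2, Palld, Plagl1, Psd, Sparcl1 and Tmsb4x. Tmsb4x, which binds actin monomers, was the most abundant, at 2247 against 1314.5 CPM in A and 2594 against 1661 CPM in B. Palld encodes palladin, an organiser of actin bundles, and stood at 185 against 117 CPM in A and 134 against 85.6 CPM in B. Nrp2, a neuropilin receptor, stood at 233 against 124 CPM in A and at 145 against 61.0 CPM in B, and Psd, an exchange factor for ARF proteins, at 106 against 54.4 CPM and 95.3 against 34.6 CPM. Il33, an alarmin cytokine of stromal cells, stood at 103 against 60.4 CPM in A and 57.1 against 30.1 CPM in B. The 4 lower genes were Cenph and Clspn, which act at the kinetochore and in the replication checkpoint, Pla2g4a, a cytosolic phospholipase, and Tmem100.

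Outside those shared genes, the endings differed in what went with a high share, and no test of that difference was possible. In A the 2-fold higher genes included Npnt and Aldh1a1, but the third set supplied 49.7% of the Npnt UMIs of high-share cells, and Npnt had ratios of 0.39 and 1.84 in the first and second sets. Aldh1a1, a retinoic acid synthesis enzyme, stood at 75.2 against 18.4 CPM in A and at 12.3 against 10.1 CPM in B. In B the 2-fold higher genes included Hand2, Gas1 and Atf3. Procr and Apela had the lowest ratios among these genes in B, at 16.2 against 75.9 CPM and 27.9 against 119.5 CPM, and in A, under the level limit, they were at 11.2 against 35.1 CPM and 15.3 against 33.6 CPM. Adamdec1, a secreted metalloprotease of gut stroma, stood at 1165 against 853 CPM in A and at 1076 against 2201 CPM in B. In A the third set supplied 26.7% of the Adamdec1 UMIs of high-share cells, and the Adamdec1 ratio was -0.22 and 0.34 in the first and second sets. Its detection was lower in high-share cells of both endings, at 65.6% against 81.4% in A and 69.5% against 85.8% in B.

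Regulators of muscle genes showed no common direction, and myocardin had the largest ratio among those described. Myocd, the coactivator of serum response factor in smooth muscle, stood at 40.0 against 9.14 CPM in A (ratio 2.13, interval 1.85 to 2.40). In B it stood at 13.6 against 4.72 CPM (1.53, 0.77 to 2.22), below the limit of 20 CPM. It was detected in 29.9% of high-share against 9.51% of remaining cells in A, and went from 50.3 CPM in the top 1% to 5.81 CPM in the lower 50%. Hand2, a transcription factor of gut mesenchyme, stood at 64.2 against 44.1 CPM in A and 58.4 against 26.1 CPM in B. Mef2c stood at 38.0 against 30.3 CPM in A and 63.5 against 36.3 CPM in B. Foxf2 was lower, with ratios of -0.25 in A and -0.74 in B, and so was Nkx2-3 (-0.17 and -0.24), both factors of gut mesenchyme. The list's sum and median differed in sign in B (-0.07 and 0.21). Of the list, 2 of 12 genes in A and 2 of 11 in B were 1.5-fold higher (1.66% and 2.67% of all genes), and 0 and 1 were 1.5-fold lower (1.02% and 2.44%). Srf itself was at 34.6 against 32.1 CPM in A and 42.1 against 33.2 CPM in B, with intervals across 0.

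Genes of calcium handling and excitability were mixed, with differences mainly among scarce transcripts. Of 10 genes with 20 CPM or more in A, 1 was 1.5-fold higher, Chrm2, a muscarinic receptor, at 20.2 against 10.2 CPM, against 1.66% of all genes. In B 0 of 8 were higher (2.67% of all genes) and 1 was lower (2.44%), the gap junction gene Gja1, at 25.3 against 44.8 CPM. Below that level, and chosen after their values were seen, Chrm2 in B (ratio 1.59, interval 0.73 to 2.37), Cav1, encoding caveolin (1.41 in A and 0.96 in B), and the calcium release channel gene Ryr2 (1.14 and 1.69) had intervals above 0 and were higher in all 4 sets. Of the 8 genes with 20 CPM or more in both endings, 3 (Gja1, Gjc1 and Gucy1a1) were lower in all 4 sets, against 13% of all genes. Only 1 of the 8 (Pde5a) was higher in all 4 sets, against 10.3% of all genes. The summed list had a ratio of 0.02 (interval -0.03 to 0.06) in A and 0.09 (0.01 to 0.16) in B. Pde5a, a phosphodiesterase for cyclic GMP, was at 204 against 172 CPM in A and 108 against 74.1 CPM in B. The guanylate cyclase subunit Gucy1a1 was at 257 against 292 CPM in A and 277 against 284 CPM in B.

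Cytoskeletal anchoring genes leaned towards the high-share cells. The adhesion list had summed ratios of 0.25 (interval 0.22 to 0.28) in A and 0.22 (0.16 to 0.27) in B, with 7 of 12 genes higher in all 4 sets (10.3% of all genes) and 0 lower (13%). Vcl, encoding vinculin, which links integrins to actin, was at 155 against 101 CPM in A and 95.3 against 47.8 CPM in B. Itgb1, the common integrin beta chain, was at 772 against 653 CPM in A and 725 against 632 CPM in B. Ncam1, an adhesion molecule, was at 357 against 222 CPM in A and 314 against 290.4 CPM in B. Ratios for the list of transforming growth factor beta and tension genes were 0.15 in A and 0.36 in B, and its member Tgfb1i1, a focal adhesion protein, was at 219 against 154 CPM and 160.2 against 107 CPM.

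Among fibroblast genes, Aspn, Lum, Ogn and Rspo3 were higher in all 4 sets (4 of 7, against 10.3% of all genes) and 0 were lower (13% of all genes), while the sum of the list had opposite signs in the endings. In B the fibroblast list was higher, with a summed ratio of 0.42 (interval 0.37 to 0.46) and Ogn at 462 against 265 CPM and Aspn at 193 against 106 CPM, both small leucine-rich proteoglycans. In A the same list had -0.07 (-0.11 to -0.04), with Ogn at 204 against 172 CPM and Aspn at 102 against 70.6 CPM, but Dpt at 35.7 against 53.8 CPM and Col14a1 at 507 against 639 CPM. The list for PDGFRA-high mesenchyme was lower in sum in both endings and in all 4 sets, and 3 of 8 genes (Bmp4, Nrg1 and Ptch1) were lower in all 4 sets and 1 (Wnt5a) higher. In B it stood at -0.41 (-0.48 to -0.35), with Nrg1 at 35.7 against 89.4 CPM, Ptch1 at 320.3 against 528 CPM and Pdgfra at 84.3 against 112 CPM. In A it had -0.05 (-0.10 to -0.01) with -0.22 and -0.16 in the first and second sets, although the median gene had 0.25, and Pdgfra was at 186 against 151 CPM, with ratios of 0.21 and -0.08 in the first and second sets. Hhip, an antagonist of Hedgehog ligands, was at 85.8 against 46.6 CPM in A and 26.6 against 37.0 CPM in B.

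Genes of bone morphogenetic protein (BMP) signalling were lower in sum in both endings, at -0.22 (interval -0.27 to -0.18) in A and -0.32 (-0.38 to -0.26) in B, although the median gene of the list had 0.15 in A. Within the first and second sets alone the sums were lower still, at -0.41 and -0.35 in A and -0.39 and -0.58 in B. Lower in all 4 sets were 4 of 10 genes (Bmp4, Bmp5, Id1 and Id3), against 13% of all genes. Id4 was higher in all 4 sets, 1 of 10 genes, near the 10.3% of all genes. The ligand Bmp4 was at 270.4 against 387 CPM in A and 517 against 662 CPM in B. Its target genes Id1 and Id3 were lower too, unlike Id4 of the same family. Id1 had ratios of -0.58 in A and -0.46 in B, and Id3 of -0.43 and -0.53. Gas1, a Hedgehog co-receptor, was higher, at 174 against 127 CPM in A and 78.5 against 39.1 CPM in B. The Hedgehog list as a whole had no common direction. Of 6 genes, 2 (Gas1 and Gli3) were higher in all 4 sets and 2 (Gli1 and Ptch1) lower, against 10.3% and 13% of all genes. Its sum had a ratio of 0.08 (interval 0.02 to 0.13) in A and -0.34 (-0.44 to -0.25) in B. In B the fall of Ptch1 alone was larger than that of the summed list. The lists share genes, so their sums are not separate results. Ptch1 and Hhip are in both the Hedgehog and PDGFRA-high lists, and Bmp2, Bmp4 and Bmp7 in both the BMP and PDGFRA-high lists. The matrix list had 0.01, with an interval across 0, in A and 0.21 (0.19 to 0.24) in B, where Col1a1 was at 3291 against 2576 CPM.

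**Figure D5:**
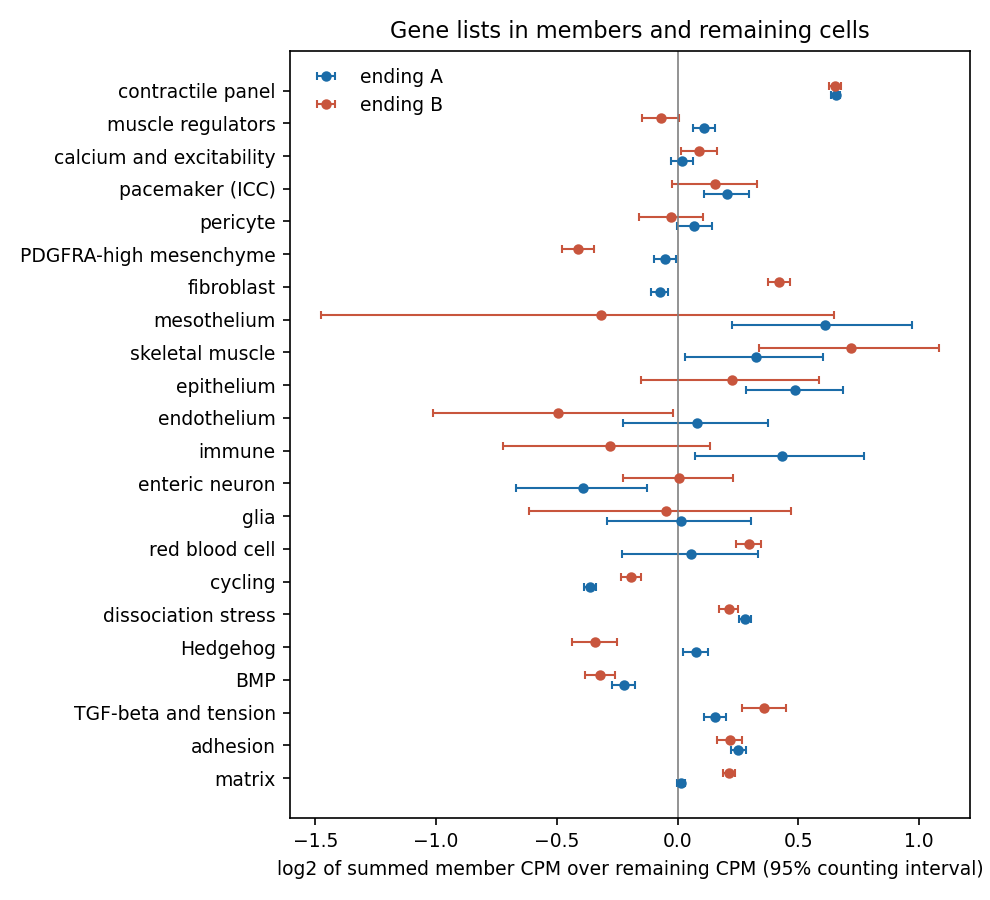
Log2 ratio of the summed level of each gene list in high-share over remaining cells (points, with 95% counting intervals) in endings A and B. The contractile panel lies farthest to the right of the lists above 100 CPM, at 0.65 in both endings, while the fibroblast and PDGFRA-high lists lie apart between endings, at -0.07 and 0.42 and at -0.05 and -0.41.

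Cycling genes were lower in high-share cells, by a summed ratio of -0.36 (interval -0.39 to -0.34) in A and -0.19 (-0.23 to -0.15) in B, but by -0.38 and 0.08 in the first and second sets of B. Of 20 genes, 7 were lower in all 4 sets, against 13% of all genes, and 0 were higher in all 4. At 2000 UMIs per cell, Mki67 or Top2a was detected in 33.8% (interval 28.3 to 39.6) of high-share and 45.9% of remaining cells in A, and in 26.2% (21.7 to 31.2) and 31.6% in B. The unthinned shares were 60.4% and 69.9% in A and 35.3% and 39.8% in B. In a calculation added after the data were seen, the top 5% was chosen anew among cells with no UMI of either gene (105 cells in A and 239 in B). The contractile panel ratio was then 0.59 in A and 0.51 in B. Immediate early genes of the kind that tissue dissociation induces were higher, by 0.28 (0.26 to 0.30) in A and 0.21 (0.17 to 0.25) in B, with 5 of 12 genes higher in all 4 sets (10.3% of all genes) and Fos at 873 against 699 CPM and 830 against 649 CPM. Their part in the other ratios was not tested.

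Markers of other contractile or neighbouring cells were scarce or mixed. Among all genes with 20 CPM or more, 1.66% in A and 2.67% in B were 1.5-fold higher, and 1.02% and 2.44% lower. Of the pericyte list, 0 of 6 genes in A and 1 of 8 in B were 1.5-fold higher, namely Rgs5, at 111 against 61.4 CPM in B and 186 against 171 CPM in A, while 3 were lower in B, Cspg4, Cox4i2 and Ndufa4l2 (14.9 against 39.3 CPM for the last). Of the list for interstitial cells of Cajal, the gut pacemaker cells, 0 of 4 genes in A and 1 of 3 in B were 1.5-fold higher, namely Thbs4, at 45.4 against 26.2 CPM, and Kitl was lower in A, at 41.8 against 62.7 CPM. The receptor gene Kit, which defines those cells, was at 9.79 against 6.97 CPM in A and 4.54 against 4.56 CPM in B. Ano1, a chloride channel gene that also marks them, was higher at a low level, at 19.3 against 8.04 CPM in A (ratio 1.26, interval 0.87 to 1.63) and 5.84 CPM in B (ratio 1.96, interval 0.70 to 3.07), and in all 4 sets. Skeletal muscle genes summed to 31.7 against 25.3 CPM in A and 44.7 against 27.2 CPM in B, mostly Tnnt1, and 3 of the 9 were at 0 in high-share cells of each ending. Sums for mesothelium, endothelium, immune cells and glia lay between 5.84 and 39.4 CPM in both groups. Enteric neuron genes summed to 34.6 against 45.4 CPM in A and to 112 CPM in both groups of B. Epithelial genes summed to 64.5 against 46.1 CPM in A, with ratios of 0.15 and -0.15 in the first and second sets. Red blood cell genes summed to 2196 against 1789 CPM in B, and their ratios there were -0.39 and 0.77 in the first and second sets.

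High-share cells led by Tagln had more of several fibroblast genes than those led by Acta2, a split and a choice of genes made after the values were seen. Cells with more Tagln than Acta2 UMIs numbered 32 in A and 139 in B, and those with more Acta2 numbered 254 and 179. Ogn stood at 539 CPM in Tagln-led against 164 CPM in Acta2-led cells of A, and at 635 against 304 CPM in B. Aspn stood at 319 against 77.9 CPM in A and 257 against 145 CPM in B, and Dcn, encoding decorin, at 2346 against 506 CPM and 1022 against 792 CPM. Lum, of the same fibroblast list, stood at 715 against 342 CPM in A and at 516 against 472 CPM in B. Its interval crossed 0 in B, with a ratio of 0.13 (-0.09 to 0.35). Col1a1 stood at 4403 against 1366 CPM in A and 3915 against 2748 CPM in B. Myl9 had opposite signs in the endings, at 826 against 699.6 CPM in A and 579 against 701 CPM in B, as did Tpm2. Tpm1 and Mylk were higher in the Tagln-led cells of A, but in B their intervals crossed 0, at -0.08 (-0.18 to 0.02) and -0.16 (-0.36 to 0.04). Id1, the BMP target, was lower in the Tagln-led cells of both endings, at 38.1 against 83.3 CPM and 61.3 against 128 CPM.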

How the data were processed

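The authors deposited 1 matrix of raw UMI counts per gene and cell for all 6 samples (10x 3' v3 chemistry, per the labels' protocols). Cell Ranger 2.1.1, Seurat and mm10 appear in the submitters' processing notes. Their roles, the annotation used and any filter on cells before deposit were not given in the sources used. The matrix holds 24568 gene symbols and 100735249 UMIs. Of these symbols, 190 older ones were merged into current ones, because the endings use different gene lists. Cells under 1000 genes (108) or over 5% mitochondrial UMIs (367) were left out.

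Levels are CPM, a gene's summed UMIs in a group per 1000000 UMIs of that group. Log2 ratios carry exact conditional binomial 95% intervals, levels exact Poisson and shares exact Clopper-Pearson intervals (scipy 1.17.1), all for counting error only. No test across samples was made, since the matrix is 1 sample, and genes were called by size. Median depth was 3553 to 13588 UMIs over the 6 sets. Clusters used scanpy 1.11.5 and leidenalg 0.10.2 with 2000 variable genes, 30 components, 15 neighbours and resolution 1 or 2. Scrublet called 19 cells in A (0.331%) and 46 in B (0.662%), 0 and 2 of them high-share cells, and no cell was removed. With 5% expected, both counts were too low to serve as a check for doublets. The ratio step was tested on simulated data.

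Genes of 22 lists were named at 20 CPM or more in 1 group. Other genes were to be named at 50 CPM and 2-fold in both endings with 1 direction in 4 sets, and those named beyond this rule were chosen after their values were seen. The 6 genes, the members and the lists were chosen with earlier results of these data known. The alternatives were other limits for the share, denominators, summaries, filters, sets, depths, UMI portions and choosing genes.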

Additional observations from a re-analysis of the deposited data

How the results depend on the processing

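No paired analysis was possible because cells cannot be assigned to samples. The contractile panel ratio stayed above 0 in all settings tried. Against 0.65 in each ending it was 0.84 (A) and 0.88 (B) for the top 2% of cells, 0.55 and 0.49 for the top 10%, 0.69 and 0.58 for the mean of per-cell CPM, and 0.57 and 0.63 in the first set alone. Some settings moved it beyond its interval in 1 ending: 0.63 without the third set and 0.69 in the second set alone (A), and 0.58 when chosen and read on separate UMIs and 0.49 at 2000 UMIs (B). Of the settings chosen after seeing the data, cells without Mki67 or Top2a gave 0.59 and 0.51, reweighted clusters 0.60 in A, and leaving out cells over 1% gave 0.61 in B. The other 7 settings of each ending did not. The cause of these shifts was not tested.

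Counts of 2-fold higher genes (10 and 9) were 31 and 31 for the top 2%, 4 and 4 for the top 10%, and 1584 and 1246 with no CPM minimum. They were 16 in A for per-cell means and 16 at 2000 UMIs, and 20 and 18 in B in the first and second sets alone. Counts of 2-fold lower genes (0 in A, 11 in B) were 8 for the top 2% in A, 1 and 4 for the top 10%, 2 and 20 without the third set, 2 and 24 in the first set, 2 and 28 in the second, 4 and 21 in cells without Mki67 or Top2a, and 5066 and 4288 with no minimum. In A they were 13 at 2000 UMIs and 2 when chosen on 3 genes, and in B 4 when chosen and read on separate UMIs. With a median of 13 UMIs of the 6 genes per high-share cell, ending B limits how well single cells can be ranked. That no separate muscle group was seen among these cells does not show that the tissue lacks one.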

Other observations

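The cells at the very top of the ranking did not share one make-up. In ending A the highest cell (1.48% of 20800 UMIs) had 133 Acta2, 79 Tagln, 40 Myh11, 31 Actg2 and 25 Cnn1 UMIs and 4 of Lmod1, but 0 of Des, together with 111 Adamdec1 and 4 Pdgfra UMIs. The next 2 cells of A had 63 and 49 Acta2 UMIs, 4 and 0 of Myh11 and 0 of Cnn1. In ending B the highest cell (2.29% of 12588 UMIs) had 101 Acta2, 66 Tagln and 81 Actg2 UMIs with 18 of Des and 17 of Cnn1, 5 of Myh11 and 0 of Lmod1, and the next had 75 Acta2, 15 Myh11, 13 Des and 81 Adamdec1 UMIs. The cell after it, at 0.981% of 3465 UMIs, had 18 Tagln and 10 Acta2 UMIs and 0 of Myh11, Cnn1 and Des. These cells were picked after their values were seen.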
